A study of Homo sapiens with 8 samples.

Results

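The replication-dependent histone genes of the human genome lie in clusters and encode the core histones H2A, H2B, H3 and H4 and the linker histone H1. Rows of an array table were taken as members where every gene symbol listed for the probe set was that of such a clustered gene, a rule on names only. This gave 70 of the 25713 rows that carried a gene symbol, in a table of 53617 rows. By class there were 6 rows for H1, 16 for H2A, 20 for H2B, 12 for H3 and 15 for H4, and 1 row listed H2AC7 together with 10 H3 genes. Together they listed 69 genes, 28 of which had a row of their own.

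A limit of these genes on an array is that their coding sequences are nearly alike, and 40 of the 70 rows listed several genes while 30 listed 1. A row with several symbols could not be assigned to any 1 of its genes, and is given here by its probe set number. The classes were uneven in this respect: 15 of the 20 H2B rows and 7 of the 16 H2A rows had 1 symbol, against 1 of the 12 H3 rows and 1 of the 15 H4 rows. Rows with the same symbols had unlike values: 14 rows that all listed the same 14 H4 genes had mean log2 values from 1.06 to 9.46. The values of rows 16670387 and 16692616, which list H3C13, H3C14 and H3C15, were identical in every array, as were those of the H4 rows 16670377 and 16692626, so that 68 rows held values of their own.

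The samples were MDA-MB-231 cells, an established human breast cancer line of the triple-negative type, and total RNA of each was hybridised to 1 Affymetrix Human Gene 2.1 ST array. There were 3 arrays of cells at a low dose, 2 arrays at a high dose and 3 arrays of untreated control cells, taken 24 h after treatment. By the titles and the protocol the treated cells had wild yam root extract, made up in ethanol, at 15 µg/mL (low) or 30 µg/mL (high). The source names of the same samples disagree: there the low samples had 128 µg/mL of an extract of Boswellia serrata, and the high samples 46 µg/mL of the compound 3-O-acetyl-β-boswellic acid. Both sets of labels split the 8 arrays in the same way, so "low" and "high" name groups here and not a settled agent. The labels call the controls untreated and do not say whether they had ethanol, nor whether replicates were separate cultures, so p-values measure the spread between these samples only. Low and high are each compared with the same 3 control arrays.

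Clustered histone genes are transcribed in S phase, when new DNA has to be packaged. Their mRNAs have no introns and end in a stem-loop in place of a poly(A) tail, and the stem-loop binding protein SLBP carries them through processing, export and translation. Several of them, among them H2BC5, H2BC12, H2BC21 and H2AC6, are also known to give polyadenylated transcripts in cells outside S phase. The labels name a whole-transcript labelling kit, whose primers do not depend on a poly(A) tail.

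Arrays of a group correlated at 0.972 to 0.994 over all rows. Low 3, high 2 and control 3 stood apart, with upper quartiles of the log2 values of 4.51, 4.50 and 4.68 against 4.76 to 4.90 in the other arrays. Of 7 markers listed as high in the line, VIM (mean 8.89), AXL (9.13), CD44 (8.37) and LGALS1 (6.80) were high. The others were lower, KRT18 at 4.48, KRT8 at 3.81 and SPARC at 2.12. Of 6 measured markers listed as low, PGR was at 1.35, ESR1 at 1.86, FOXA1 at 1.92, GATA3 at 2.82 and CDH1 at 3.10. EPCAM, also listed as low, was at 4.92, above KRT18, KRT8 and SPARC. The 4 leukocyte and 2 endothelial markers measured had means of 1.13 to 2.50 and 1.89 to 1.99, and those of 3 fibroblast markers were 1.20 to 3.56, of which COL1A1 rose at the low dose (0.76, adjusted p = 0.0283).

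Histone rows spanned almost the whole range of the table, with mean log2 values over the 8 arrays from 0.74 to 9.63. There were 17 rows at 5 or more, 15 between 3 and 5 and 38 under 3. The brightest was H2AC20, followed by 2 rows that list 14 H4 genes, the row of H2AC18 and H2AC19, a further H4 row and the linker histone gene H1-4. Because probe sets differ in how strongly they bind their target, the order of rows by brightness describes the table and is not an order of amounts of RNA. H2AC1 and H2BC1, which encode testis histones, had values from 1.31 to 3.12 and from 1.44 to 2.25 over the 8 arrays, and the table holds no background measure, so low rows could not be told from silent genes.

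Many H2A and H2B genes stand head to head and share the stretch between their starts. In the RefSeq promoter windows (GRCh38.p14) found for 64 of the 69 genes, 50 of them on chromosome 6, 13 on chromosome 1 and 1 on chromosome 12, there were 13 pairs of genes on opposite strands whose starts lie at most 979 bases apart. The pairs include H3C4 with H2BC7 and H3C7 with H2BC9, the latter 979 bases apart, which are not pairs of H2A and H2B. In these windows H3C4 and H2AC7 have the same start, so both are paired with H2BC7 over the same stretch. In 4 pairs both genes had a row of their own. The windows of 6 genes are printed from 250 bases before the start up to the start, 5′ to 3′ on the strand of the gene, because these genes fell (H2AC20, H2AC21, H2AC14, H1-2), rose (H2BC5) or lead their class (H2BC12). Capitals mark 4 short motifs or their reverse complements: CCAAT as the box of that name, TATAA as the core of a second box near the start, TTTGCAT as the octamer core, and GTCCG as letters common in H4 promoters.
H2AC20: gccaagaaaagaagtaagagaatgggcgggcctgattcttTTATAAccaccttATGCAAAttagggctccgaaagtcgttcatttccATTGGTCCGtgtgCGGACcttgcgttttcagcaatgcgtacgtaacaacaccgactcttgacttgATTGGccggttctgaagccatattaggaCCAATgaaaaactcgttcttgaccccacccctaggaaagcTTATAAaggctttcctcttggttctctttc
H2AC21: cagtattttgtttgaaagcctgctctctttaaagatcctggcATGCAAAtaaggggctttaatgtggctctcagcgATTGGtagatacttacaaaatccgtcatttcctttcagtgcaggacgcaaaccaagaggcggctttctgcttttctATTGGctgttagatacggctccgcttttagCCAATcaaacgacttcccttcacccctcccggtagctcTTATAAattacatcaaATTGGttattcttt
H2AC14: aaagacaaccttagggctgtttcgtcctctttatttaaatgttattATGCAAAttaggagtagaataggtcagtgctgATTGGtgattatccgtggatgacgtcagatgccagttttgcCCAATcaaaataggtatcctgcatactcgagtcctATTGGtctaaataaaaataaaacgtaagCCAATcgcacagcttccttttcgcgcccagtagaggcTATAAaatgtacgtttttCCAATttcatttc
H1-2: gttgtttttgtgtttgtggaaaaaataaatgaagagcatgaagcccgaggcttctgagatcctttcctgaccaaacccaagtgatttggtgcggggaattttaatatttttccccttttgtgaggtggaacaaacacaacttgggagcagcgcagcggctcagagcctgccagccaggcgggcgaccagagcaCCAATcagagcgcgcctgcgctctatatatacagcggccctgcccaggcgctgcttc
H2BC5: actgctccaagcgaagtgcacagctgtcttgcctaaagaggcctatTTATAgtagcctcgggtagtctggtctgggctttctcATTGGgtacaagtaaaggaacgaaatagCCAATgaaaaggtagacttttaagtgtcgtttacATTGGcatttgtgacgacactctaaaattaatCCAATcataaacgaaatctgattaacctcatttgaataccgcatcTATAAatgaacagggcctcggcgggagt
H2BC12: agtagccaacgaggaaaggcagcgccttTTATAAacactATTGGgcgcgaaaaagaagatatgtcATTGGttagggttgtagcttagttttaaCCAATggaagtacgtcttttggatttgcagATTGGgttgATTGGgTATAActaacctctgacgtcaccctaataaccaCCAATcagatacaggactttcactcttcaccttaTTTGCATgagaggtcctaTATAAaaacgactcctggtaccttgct

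These windows lie at chr1:149886668-149886917 on the plus strand for H2AC20, chr1:149887966-149888215 on the minus strand for H2AC21, chr6:27814778-27815027 on the minus strand for H2AC14, chr6:26056471-26056720 on the minus strand for H1-2, chr6:26157871-26158120 on the plus strand for H2BC5 and chr6:27146859-27147108 on the minus strand for H2BC12. TATAA was found at 28 bases before the start of H2BC5, 27 before that of H2BC12 and 31 before that of H2AC14. In H2AC20 and H2AC21 it was found at 29 bases. The H1-2 window held 1 CCAAT at 57 bases and no TATAA. Between that CCAAT and the start it holds the letters TATATA, which this search does not count. The octamer core, the letters known to bind Oct-1 (POU2F1) in H2B promoters, stood 45 bases before the start of H2BC12. In the H2A windows it lay at the far end, at 197 bases for H2AC20, 208 for H2AC21 and 204 for H2AC14, and it was not in the H2BC5 window. In H2AC20 a CCAAT and a GTCCG overlap.

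Over the 64 windows CCAAT was present in 84.4% and TATAA in 92.2%, beside 33% and 19.6% of the 27305 windows of all genes. The octamer core was in 40.6%, beside 3.98%, and divided the classes: it was found in 14 of 18 H2B and 11 of 16 H2A windows, in 1 of 11 H3 windows and in none of the 6 H1 and 13 H4 windows. GTCCG was in 12 of 13 H4 windows, 25% of the 64 and 24% of all windows. A match of letters is a description of these windows and not a shown binding site.

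At the low dose more histone rows fell than rose against the control arrays, and 8 of the 11 that fell were among the 17 brightest. Of the 70 rows, 11 fell and 2 rose (15.7% and 2.86%; limma, adjusted p under 0.05), beside 1.58% and 1.14% of all 25713 rows. Counted once, the identical H3 rows leave 10 that fell. The count of falls moved with single arrays. It was 3 without control 1, control 2 or low 1 (4.29% each), 4 without low 3 (5.71%) and 5 without low 2 (7.14%). Falls over all rows were also fewer, at 0.852%, 0.984%, 0.856%, 0.774% and 0.681% in the same order. The count of rises was 3 without control 3 (4.29%, beside 1.1% of all rows). It was 1 without control 1 or low 2 (1.43%, beside 0.801% and 0.439%) and 0 without control 2 or low 1 (beside 0.778% and 0.49%). Of the 17 rows with a mean of 5 or more, 8 fell (47.1%, against 4.19% of the 5684 rows of the table at that level), none rose, and the median change was -0.75 against -0.08 in all rows at that level. In these bulk samples, fewer cells in S phase and less histone RNA per cell cannot be told apart.

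At an unadjusted p under 0.05, 9 rows were higher and 21 lower, beside 5.29% and 8.33% of all rows. Values of the low arrays lay wholly below those of the control arrays in 21 of the 70 rows and wholly above in 8, or 30% and 11.4%, beside 12.5% and 7.09% of all rows. Over all 70 rows the median change was -0.08, close to the -0.04 of the whole table, since 38 dim rows had a median of 0.01. By class, H2A rows had a median change of -0.53 with 5 rows that fell, and H3 rows -0.16 with 3. The medians were -0.08 for H4 rows with 2 that fell, -0.02 for H1 rows with 1 that fell and 1 that rose, and -0.03 for H2B rows with none that fell and 1 that rose. Under quantile normalization the medians of H1 and H4 were 0.01 and 0.00. The classes also differed in how many rows were bright. Among rows with a mean of 5 or more, the medians were -0.84 for H2A (6 rows) and -0.55 for H4 (5 rows). They were -0.78 for H1 (2 rows), -1.05 for H3 (2 identical rows) and -0.68 for H2B (2 rows, neither called). The classes were not tested against each other.

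**Figure D1:**
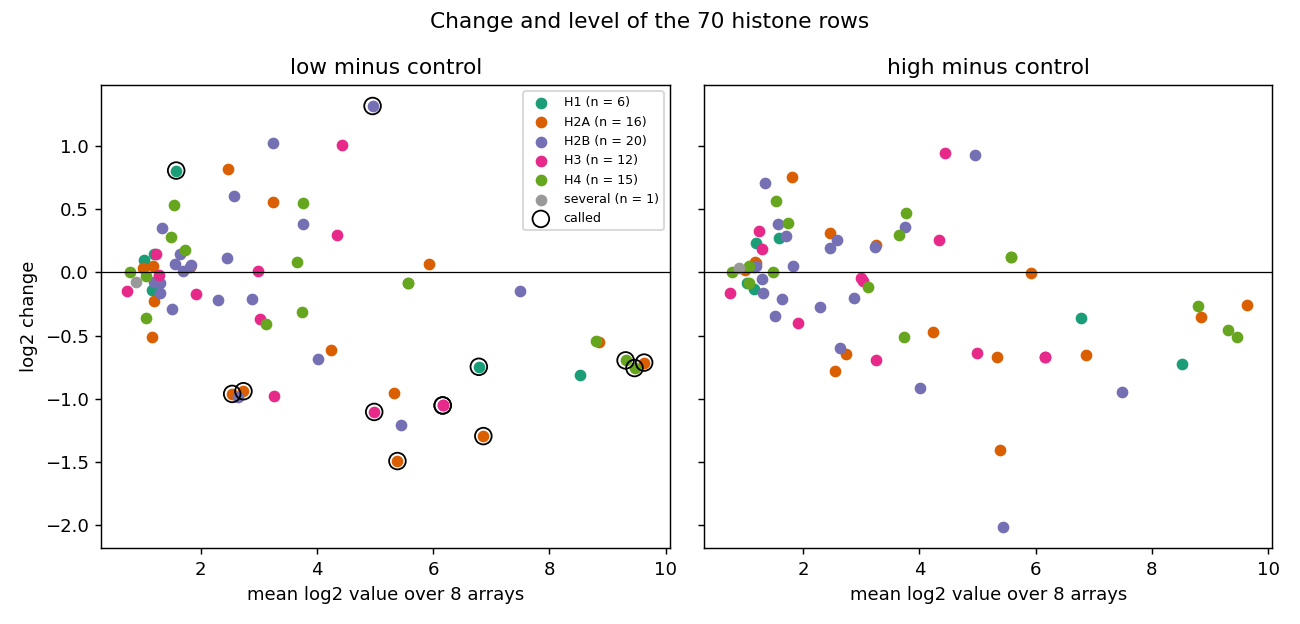
Log2 change of each of the 70 histone rows (vertical axis) against its mean log2 value over 8 arrays (horizontal axis), for low minus control and for high minus control, coloured by histone class, with rows called at adjusted p under 0.05 circled. At the low dose 8 of the 17 rows with a mean of 5 or more are circled below the zero line, and at the high dose no row is circled.

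The H2A rows held the firmest fall. H2AC21 had log2 values of 6.34, 6.37 and 5.95 in the low arrays, 7.01 and 6.70 in the high arrays and 7.54, 7.60 and 7.40 in the control arrays. The groups did not overlap, with the high arrays in between. Low arrays were 2.45-fold below control arrays (-1.29 ± 0.17, SE of the log2 change; 3 against 3 arrays; adjusted p = 0.00397), and this call held under all 19 alternative settings run.

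H2AC20, the brightest row, had 9.23, 9.35 and 9.16 in the low arrays, 9.66 and 9.75 in the high arrays and 9.956, 9.930 and 9.996 in the control arrays. Every low array was below every high array, and every high array below every control array. The fall at the low dose was 1.64-fold (-0.71 ± 0.14, adjusted p = 0.0204), and the call ended under 6 of 19 alternatives, among them a fit of the low and control arrays alone with the replicate number as a block (adjusted p = 0.0533). H2AC14 fell at a dim level, with 2.02, 2.03 and 2.36 in the low arrays against 2.91, 3.36 and 3.02 in the control arrays (-0.96 ± 0.18, adjusted p = 0.0174), and its call ended under 4 of 18 alternatives.

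The row of the group H2AC11, H2AC12, H2AC13, H2AC15, H2AC16 and H2AC17 with the largest change was 17005858, at 5.00, 5.25 and 4.16 in the low arrays, 5.34 and 4.44 in the high arrays and 6.52, 6.44 and 5.93 in the control arrays. It fell 2.81-fold at the low dose (-1.49 ± 0.31, adjusted p = 0.0286), with the call ended under 5 of 18 alternatives. Row 17016512, with the same 6 genes, fell as well, at 2.45, 2.49 and 2.00 in the low arrays against 3.28, 3.27 and 3.20 in the control arrays (-0.94 ± 0.17, adjusted p = 0.0142). The other 3 rows of these 6 genes were not called, with changes of -0.61 (row 17016496), 0.56 (row 17005787) and 0.04 (row 17005876).

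The 2 rows of H2AC18 and H2AC19 were not called and had changes of opposite sign, a difference that was not tested. Row 16670383 had 8.63, 8.77 and 8.38 in the low arrays against 9.24, 9.28 and 8.91 in the control arrays (-0.55 ± 0.17, adjusted p = 0.143). Row 16692620, which lists the same 2 genes but is dim, had 2.89, 2.86 and 2.96 in the low arrays against 2.39, 1.65 and 2.21 in the control arrays (0.82 ± 0.19, adjusted p = 0.0503, or 0.0278 with the replicate block over all 8 arrays and 0.0716 with it over the low and control arrays alone). H2AC6, a gene with known polyadenylated transcripts, had 6.004, 6.205 and 5.703 in the low arrays, 6.02 and 5.77 in the high arrays and 5.78, 5.97 and 5.96 in the control arrays, and the 3 groups overlapped (0.07 ± 0.17 at the low dose, adjusted p = 0.929).

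H3 rows that fell at the low dose were 16670387 and 16692616, with the shared values of H3C13, H3C14 and H3C15, and row 17016363, which lists 10 H3 genes of chromosome 6. The first had 5.90, 6.04 and 5.08 in the low arrays, 6.28 and 5.83 in the high arrays and 6.68, 6.68 and 6.82 in the control arrays (-1.05 ± 0.24, adjusted p = 0.0457), and its call ended under 11 of 18 alternatives, the block over low and control arrays alone (0.0819) included. Row 17016363 had 4.30, 4.63 and 4.44 in the low arrays, 4.99 and 4.85 in the high arrays and 5.56, 5.78 and 5.33 in the control arrays. It fell 2.15-fold (-1.10 ± 0.17, adjusted p = 0.00682) and kept its call under all 17 alternatives run. Row 17005532 lists the same 10 genes and ran the other way, with 5.04, 5.14 and 4.32 in the low arrays against 3.73, 4.33 and 3.42 in the control arrays (1.01 ± 0.28, adjusted p = 0.0990, or 0.0270 with the block over all 8 arrays and 0.0319 over low and control arrays alone). Low 3 was just below control 2 in that row.

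Of the 15 H4 rows, the 3 brightest lay wholly below the control arrays at the low dose, and the first 2 of them fell. Row 17016494 had 9.20, 9.25 and 8.91 in the low arrays, 9.46 and 9.27 in the high arrays and 9.85, 9.94 and 9.83 in the control arrays (-0.76 ± 0.15, adjusted p = 0.0256). Row 17005868 had 9.02, 9.06 and 8.88 in the low arrays against 9.68, 9.72 and 9.65 in the control arrays (-0.70 ± 0.14, adjusted p = 0.0239). Their calls ended under 6 and 7 of 18 alternatives, that of 17005868 among others with the block over low and control arrays alone (adjusted p = 0.0510). Row 17005560 had 8.41, 8.45 and 8.71 against 9.15, 9.03 and 9.02 (-0.55 ± 0.15, adjusted p = 0.0898). Not all H4 rows were lower: the identical rows 16670377 and 16692626 changed by -0.08 ± 0.19 with overlapping arrays, and row 17016406 by 0.55 ± 0.22 (adjusted p = 0.281).

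**Figure D2:**
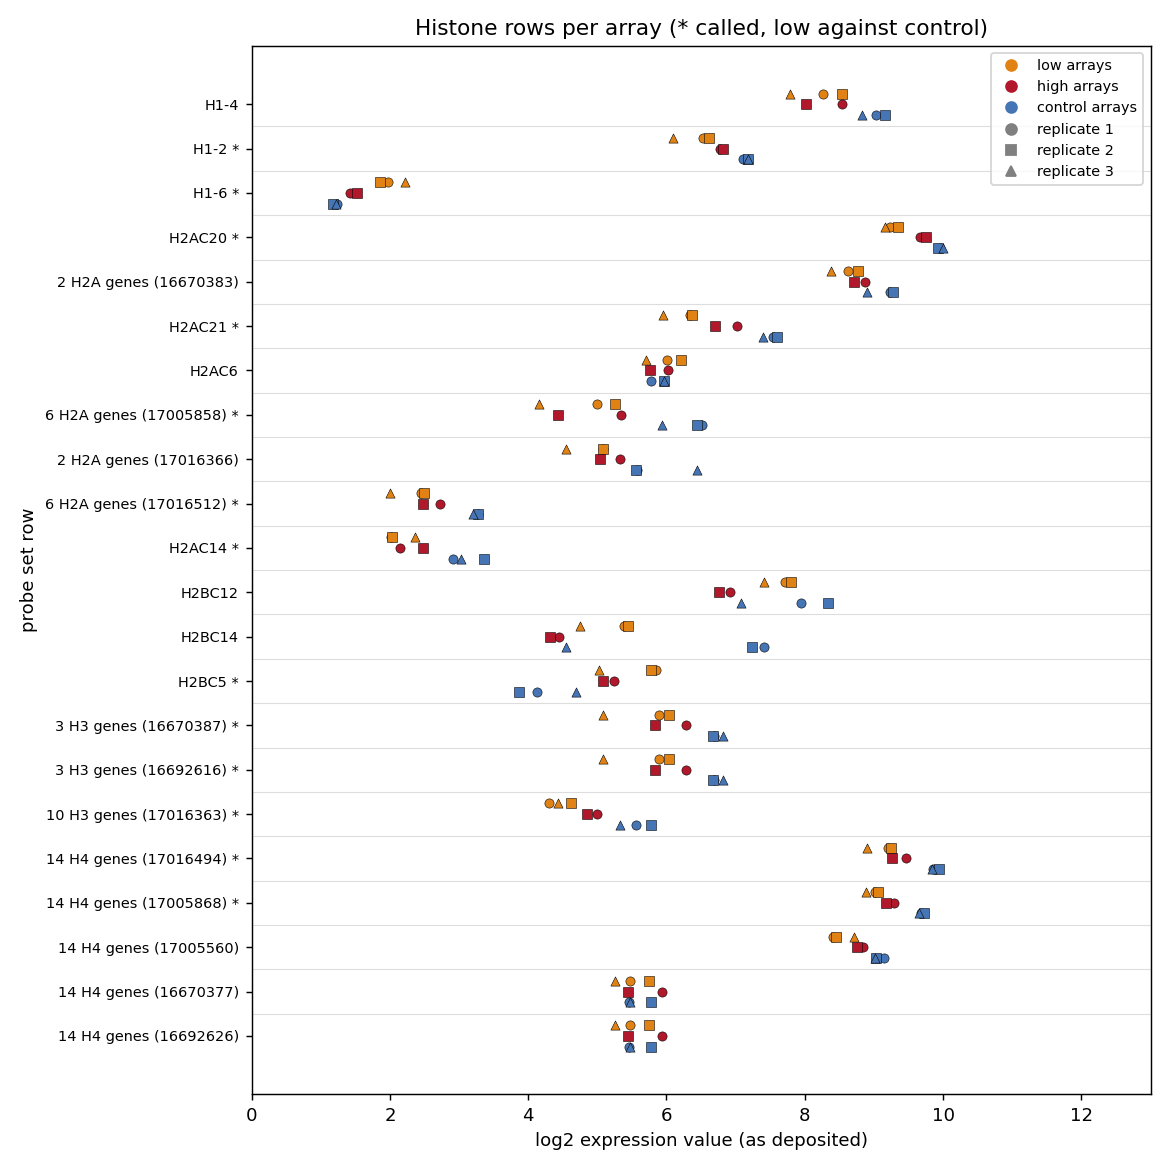
Deposited log2 values (horizontal axis) of the histone rows with a mean of 5 or more and of the other rows called at the low dose, by row and ordered by class. Each array is a point, with low arrays above high arrays above control arrays in each row, replicate numbers as shapes and an asterisk for rows called between low and control. In H2AC20 the low arrays sit at 9.16 to 9.35 and the control arrays at 9.930 to 9.996.

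Linker histones compact nucleosome arrays, and 2 of the 6 H1 rows had a mean of 5 or more. H1-2 had 6.53, 6.61 and 6.09 in the low arrays, 6.77 and 6.81 in the high arrays and 7.11, 7.18 and 7.18 in the control arrays. It fell at the low dose (-0.75 ± 0.17, adjusted p = 0.0407), but the call ended under 12 of 19 alternatives, among them the block over low and control arrays alone (adjusted p = 0.0735). H1-4 had 8.27, 8.53 and 7.79 in the low arrays, 8.54 and 8.02 in the high arrays and 9.04, 9.17 and 8.83 in the control arrays. Both treated groups lay wholly below the controls, yet the low change of -0.81 ± 0.22 was not called (adjusted p = 0.0854, or 0.0387 with the block over all 8 arrays and 0.0461 over low and control arrays alone). H1-6, a testis gene, had 1.97, 1.86 and 2.22 in the low arrays against 1.23, 1.17 and 1.23 in the control arrays and rose by 0.81 ± 0.15 (adjusted p = 0.0165), with no overlap between the groups and all arrays dim. H1-1, H1-3 and H1-5 stayed between 0.84 and 1.43 in all arrays.

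H2B was the class with no fall called at the low dose. H2BC5 had 5.85, 5.78 and 5.02 in the low arrays, 5.25 and 5.08 in the high arrays and 4.13, 3.87 and 4.69 in the control arrays. All treated arrays were above all control arrays, and the low arrays were 2.49-fold above the control arrays (1.32 ± 0.26, adjusted p = 0.0208), a call that ended under 6 of 18 alternatives, among them the block over low and control arrays alone (adjusted p = 0.0939). H2BC21 had 4.04, 3.80 and 3.88 in the low arrays, 4.06 and 3.69 in the high arrays and 3.65, 3.58 and 3.32 in the control arrays, again with no overlap, but the change of 0.38 ± 0.17 was not called (adjusted p = 0.334). Both are among the genes with known polyadenylated transcripts. So are H2AC6 and H2BC12, which changed by 0.07 and -0.15 at the low dose, neither of them called. Row 17016379, which lists H2BC4, H2BC6, H2BC7, H2BC8 and H2BC10, had 3.87, 3.81 and 3.82 in the low arrays, 2.59 and 3.42 in the high arrays and 3.15, 3.11 and 2.16 in the control arrays (1.02 ± 0.28 at the low dose, adjusted p = 0.0906, or 0.0474 with the block over all 8 arrays and 0.0743 over low and control arrays alone).

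The brightest H2B rows showed how far 1 control array could decide a value. H2BC12 had 7.71, 7.80 and 7.41 in the low arrays, 6.92 and 6.75 in the high arrays and 7.95, 8.33 and 7.08 in the control arrays. H2BC14 had 5.39, 5.44 and 4.75 in the low arrays, 4.45 and 4.31 in the high arrays and 7.42, 7.23 and 4.55 in the control arrays. In both genes control 3 lay far below controls 1 and 2, and H2BC14 changed by -1.21 ± 0.60 at the low dose (adjusted p = 0.423). Without control 3, and with low 3 kept, its change was -2.13 (adjusted p = 0.000860). Row 17016509, of 10 H3 genes, had the same form, with control 3 at 2.95 against 4.25 and 4.20 in controls 1 and 2, and its low change was -0.97 ± 0.30 (adjusted p = 0.141) with control 3 and -1.40 (adjusted p = 0.00232) without it. H2BC17 had 3.74, 3.73 and 3.99 in the low arrays against 4.78, 4.01 and 4.72 in the control arrays (-0.68 ± 0.21, adjusted p = 0.144), and changed by -0.91 ± 0.24 at the high dose (adjusted p = 0.120).

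At the high dose no histone row was called, but the same side of the controls was common among the bright rows. Limma called 0 of 70 rows in either direction, beside 0.439% of all rows higher and 0.327% lower. At an unadjusted p under 0.05 there were 3 rows higher and 14 lower, beside 2.98% and 11.2% of all rows. Both high arrays lay above all control arrays in 9 rows and below them in 20, or 12.9% and 28.6%, beside 6.87% and 22.6% of all rows. Of the 17 rows with a mean of 5 or more, 14 lay wholly below the controls (82.4%, beside 30.8% of all rows at that level), with a median change of -0.51 beside -0.23. The median over all 70 rows was -0.05, and it was 0.02 under quantile normalization and 0.06 with array medians subtracted, so that its sign is not settled. The whole table had a median of -0.12 in this comparison, and -0.02 under either scaling. By class the medians at the high dose were -0.11 for H1, -0.13 for H2A, -0.12 for H3, -0.00 for H2B and 0.00 for H4. With array medians subtracted they were -0.01, -0.03, -0.01, 0.10 and 0.11 in the same order, so none of these is given as a change of a class.

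H2AC21 changed by -0.66 ± 0.19 at the high dose (2 against 3 arrays, adjusted p = 0.162), and H2AC20 by -0.25 ± 0.16 (adjusted p = 0.492). The H2A row 17005858 changed by -1.41 ± 0.35 (adjusted p = 0.107), nearly as much as at the low dose. H1-4 changed by -0.73 ± 0.24 (adjusted p = 0.216), the H4 row 17016494 by -0.51 ± 0.17 (adjusted p = 0.217) and H2BC5 by 0.93 ± 0.29 (adjusted p = 0.185). The largest difference was that of H2BC14, at -2.02 ± 0.67 (adjusted p = 0.212) with control 3 and -2.94 (adjusted p = 0.000186) without it. H2BC12 changed by -0.95 ± 0.31 (adjusted p = 0.202), or -1.30 (adjusted p = 0.00786) without control 3. Without that array 5 rows were called lower and 1 higher, or 7.14% and 1.43%, beside 3.02% and 1.11% of all rows, the other lower rows being 17005858 (-1.59, adjusted p = 0.0301), 17016363 (-0.75, adjusted p = 0.0483) and 17016509 (-1.12, adjusted p = 0.00980), and the higher one H2BC5 (1.16, adjusted p = 0.0335). The fit without control 3 keeps high 2, which also stood apart by its upper quartile. Over all rows it called 776 lower, against 84 in the main fit.

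Set against each other directly, no row was called between the high and the low arrays (0 of 70 by limma in either direction, beside 0.00389% of all rows higher and 0% lower). At an unadjusted p under 0.05 there were 4 rows higher and 4 lower, beside 2.44% and 6% of all rows. The high arrays lay above all low arrays in 14 rows and below them in 7, or 20% and 10%, beside 8.51% and 16.9% of all rows, and the median was 0.09 beside -0.08. Among the higher rows were H2AC21 (0.64 ± 0.19, adjusted p = 0.417), H2AC20 (0.46 ± 0.16, adjusted p = 0.482) and the H3 row 17016363 (0.47 ± 0.19, adjusted p = 0.556). H2BC12 (-0.80 ± 0.31, adjusted p = 0.540), row 17016379 (-0.83 ± 0.31, adjusted p = 0.536) and H2BC14 (-0.81 ± 0.67, adjusted p = 0.753) were lower. The H2A rows had a median of 0.19, the H3 rows 0.19, the H4 rows 0.21, the H1 rows 0.05 and the H2B rows -0.04. The H2B median was 0.03 under quantile normalization and 0.05 with array medians subtracted, where the median of all rows was 0.02. A difference between the doses was not shown for any row.

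The other largest changes within a class at the high dose, between the doses or in H2B at the low dose were not called. H2AC1, the testis H2A gene, changed by 0.76 ± 0.38 at the high dose (adjusted p = 0.392), through the single value of 3.12 in high 2 beside 1.60 in high 1. H2BC3 had 1.88, 3.24 and 1.41 in the low arrays against 2.89, 2.82 and 3.77 in the control arrays (-0.99 ± 0.41, adjusted p = 0.306). Among H4 rows at the high dose, 17016506 changed by 0.56 ± 0.51 and 17005535 by -0.51 ± 0.31. Between high and low arrays H1-2 and H1-6 were the ends of their class, at 0.38 ± 0.19 and -0.53 ± 0.17. For H2A they were H2AC1 (0.72 ± 0.38) and row 16692620 (-0.51 ± 0.21), for H4 rows 16761778 (0.30 ± 0.21) and 17005790 (-0.28 ± 0.22), and H2BC3 (0.39 ± 0.46) and the H3 row 17005862 (-0.23 ± 0.50) were the highest H2B and the lowest H3 change. The row of H2AC7 with 10 H3 genes, 17016386, changed by -0.07 ± 0.15 at the low and 0.03 ± 0.17 at the high dose.

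Of the head-to-head partners with rows of their own, H2AC20 and H2AC14 were called and their H2B partners were not. H2AC20 and H2BC21 start 236 bases apart on chromosome 1, and at the low dose H2AC20 fell (-0.71 ± 0.14, adjusted p = 0.0204) while every low array of H2BC21 was above the control arrays (0.38 ± 0.17, adjusted p = 0.334). H2AC14 and H2BC14 start 245 bases apart on chromosome 6, and both were lower, H2AC14 by a called difference (-0.96 ± 0.18) and H2BC14 by one that rested on controls 1 and 2 (-1.21 ± 0.60). The pair H2AC1 and H2BC1 changed by 0.04 ± 0.34 and 0.01 ± 0.20, and the pair H2AC25 and H2BC26 by -0.51 ± 0.21 and -0.22 ± 0.31, none of them called and all 4 genes dim. The difference between partners was not tested.

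**Figure D3:**
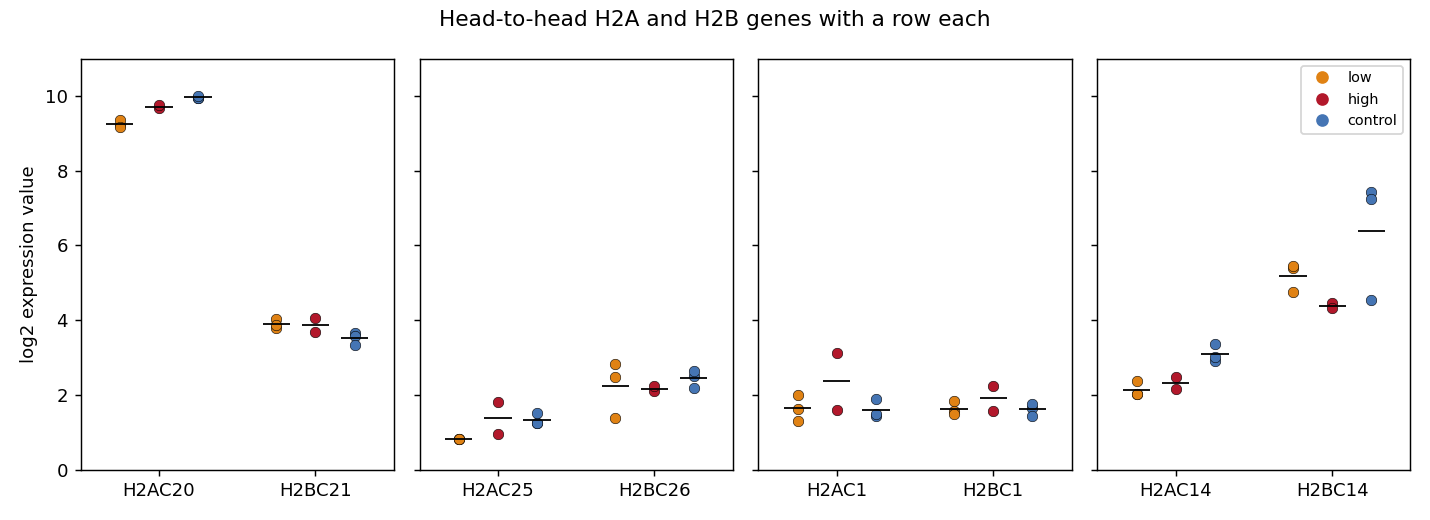
Deposited log2 values (vertical axis) of the genes of 4 head-to-head pairs in which both genes have a row of their own, with a point per array, low then high then control, and a bar at the group mean. H2AC20 steps up from the low to the high to the control arrays while H2BC21 does not, and control 3 of H2BC14 sits at 4.55, apart from controls 1 and 2.

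Genes that make and process histone mRNA had mostly negative changes in both treated groups, as had most rows of the table. Of 27 genes listed, 24 had a row, of which 20 had a negative change at the low and 22 at the high dose. Over the whole table, 14642 and 17369 of 25713 rows had a negative change. Of the 24 genes 2 fell and none rose at either dose (limma), beside 1.58% and 0.327% of all rows that fell. The 24 genes had median changes of -0.35 at the low and -0.46 at the high dose, beside -0.04 and -0.12 in all rows. CCNE2, one of the cyclins E that switch on histone transcription with CDK2 through NPAT, had 5.01, 4.99 and 4.62 in the low arrays, 5.09 and 4.83 in the high arrays and 6.21, 6.14 and 6.13 in the control arrays. It fell at both doses (-1.29 ± 0.16, adjusted p = 0.00316, and -1.20 ± 0.18, adjusted p = 0.0167), the call at the high dose ending under 6 of 18 alternatives. CDK2 fell at the low dose (-0.81 ± 0.18, adjusted p = 0.0408), a call that ended under 13 of 19 alternatives, among them the block over low and control arrays alone (adjusted p = 0.105).

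SLBP, the stem-loop binding protein, had 6.88, 6.91 and 6.53 in the low arrays, 6.48 and 6.28 in the high arrays and 7.22, 7.35 and 7.43 in the control arrays. The high arrays were the lowest and no groups overlapped. It fell at the high dose (-0.95 ± 0.18, adjusted p = 0.0408, the call ended under 9 of 18 alternatives) and was not called at the low dose (-0.56 ± 0.16, adjusted p = 0.113). NPAT, the coactivator of histone transcription, changed by -0.65 ± 0.21 at the low dose (adjusted p = 0.156) and -0.66 ± 0.23 at the high dose (adjusted p = 0.234), with both groups wholly below the controls. CASP8AP2, the FLASH protein of the histone locus body, changed by -0.64 ± 0.17 (adjusted p = 0.0827, or 0.0443 with the block over all 8 arrays and 0.0846 over low and control arrays alone) at the low dose and -0.45 ± 0.19 at the high dose (adjusted p = 0.312). LSM11 of the U7 particle, which cleaves histone pre-mRNA, changed by -0.10 ± 0.20 at the low dose, with overlapping arrays.

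Chaperones bring new histones to DNA. Of 25 listed genes 23 had a row. Of these 6 fell at the low dose and 1 at the high dose and none rose, beside 1.58% and 0.327% of all rows that fell. The medians were -0.57 and -0.47, beside -0.04 and -0.12 in all rows. HJURP, which loads the centromeric variant CENPA, had 5.74, 5.63 and 5.19 in the low arrays against 6.96, 7.04 and 7.28 in the control arrays (-1.57 ± 0.18, adjusted p = 0.00241). MMS22L, which acts with TONSL at stalled replication forks, fell at both doses (-1.32 ± 0.19, adjusted p = 0.00539, and -1.25 ± 0.21, adjusted p = 0.0265), the call at the high dose ending under 7 of 17 alternatives. ANP32E, which removes H2A.Z, fell by 1.09 on the log2 scale at the low dose (adjusted p = 0.0136, or 0.0645 with the block over low and control arrays alone). HAT1, which acetylates new H4, fell as well (-0.81 ± 0.15, adjusted p = 0.0146). SUPT16H, a FACT subunit (-0.71 ± 0.16, adjusted p = 0.0414), and NASP, a carrier of soluble H3 and H4 (-0.77 ± 0.18, adjusted p = 0.0477), completed the falls, with calls that ended under 6 and 10 of 19 alternatives.

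Among the other chaperones, CHAF1A and ASF1B had negative changes that were not called in the main fit. CHAF1A, the large subunit of the CAF-1 complex, had 5.47, 5.39 and 5.23 in the low arrays against 6.30, 6.49 and 5.83 in the control arrays (-0.84 ± 0.22, adjusted p = 0.0729, or 0.0354 with the block over all 8 arrays and 0.0477 over low and control arrays alone). ASF1B, a carrier of H3 and H4 in S phase, had 4.15, 4.45 and 3.74 against 5.40, 5.37 and 4.62 (-1.01 ± 0.24, adjusted p = 0.0524, or 0.00565 with the block over all 8 arrays and 0.0255 over low and control arrays alone). Neither gene's low arrays overlapped its control arrays.

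Of 13 histone variants listed apart from the clustered genes, 8 had a row. H2AX, the variant phosphorylated at DNA breaks, had 4.81, 4.91 and 4.98 in the low arrays, 5.43 and 5.06 in the high arrays and 5.67, 5.74 and 5.94 in the control arrays and fell at the low dose (-0.89 ± 0.16, adjusted p = 0.0136). H2AZ1 changed by -0.71 ± 0.17 (adjusted p = 0.0559, or 0.0431 with the block over all 8 arrays and 0.0970 over low and control arrays alone). H1-10, a linker histone variant, had 4.89, 4.77 and 4.19 in the low arrays against 4.06, 4.16 and 3.64 in the control arrays, above them in each but not called (0.66 ± 0.21, adjusted p = 0.161). The variants had medians of -0.42 at the low dose and -0.24 at the high dose, and none passed at the high dose. H3-3B and CENPA had no row of their own and were not analysed here.

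**Figure D4:**
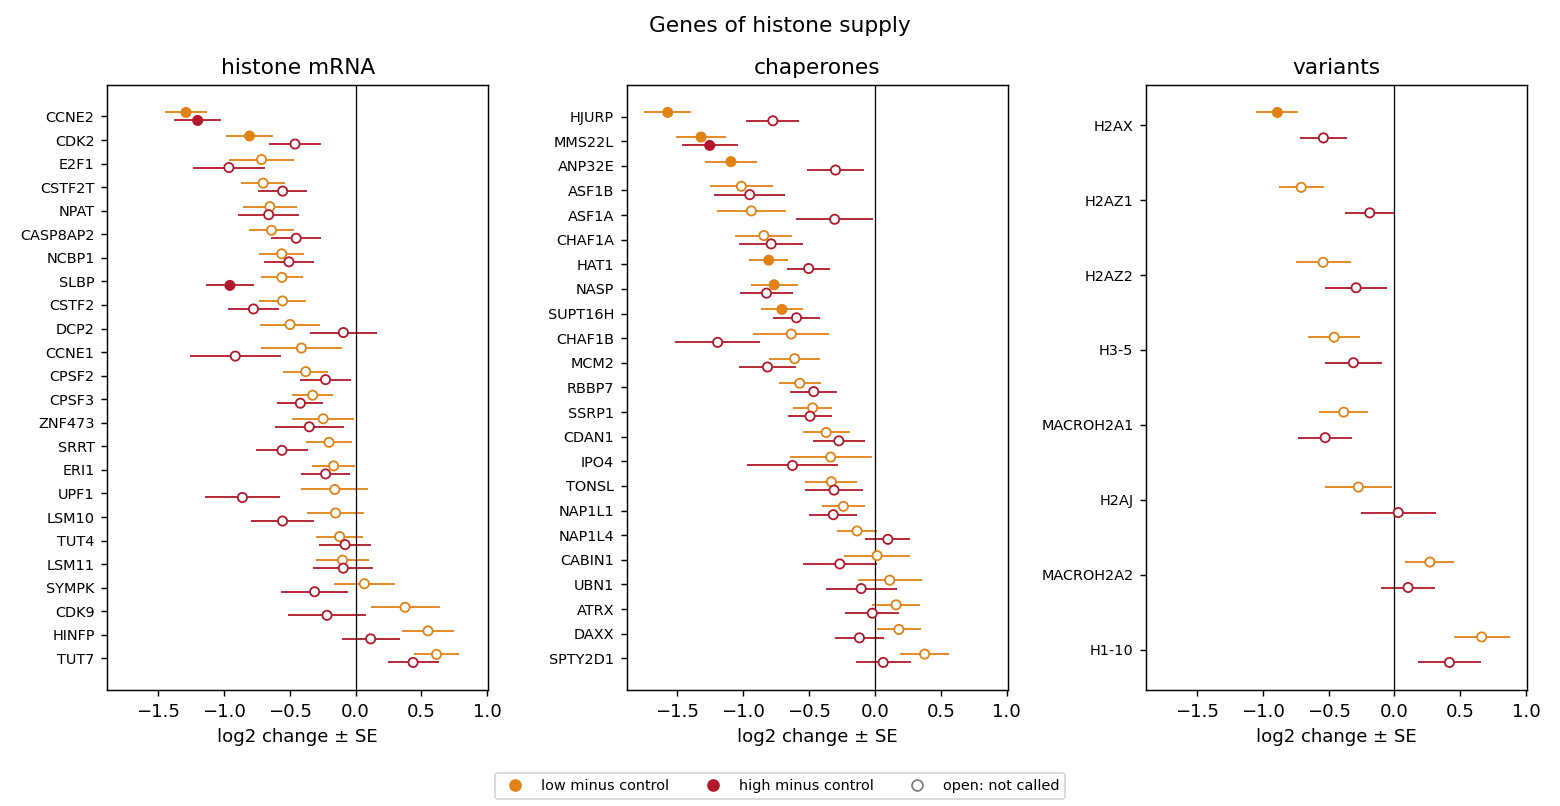
Log2 change ± SE (horizontal axis) of the genes of histone mRNA synthesis and processing, histone chaperones and histone variants, for low minus control and high minus control, with filled points for genes called at adjusted p under 0.05. CCNE2 and MMS22L are filled in both comparisons, SLBP at the high dose alone.

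Genes of S phase were listed to set beside the histone rows. Of 16 listed genes 15 had a row, and all 15 were below zero at both doses, beside 14642 and 17369 of all 25713 rows. Of the 15 genes 7 fell at the low dose and 5 at the high dose, beside 1.58% and 0.327% of all rows. Every one of the 5 calls at the high dose ended under some alternatives, PCNA's under 10, MCM3's and TYMS's under 8, CDC6's under 7 and MCM6's under 6 of 18. The medians of the 15 were -0.86 and -0.84, and -0.17 between high and low arrays. Examples at the low dose were PCNA, the replication clamp (-0.999 ± 0.142, adjusted p = 0.00521), TYMS, which makes thymidylate (-1.01 ± 0.15, adjusted p = 0.00721), and RRM2, of ribonucleotide reductase (-1.02 ± 0.16, adjusted p = 0.00765). The mean level over the 15 genes was 5.81, 5.78 and 5.43 in the low arrays, 5.78 and 5.44 in the high arrays and 6.69, 6.73 and 6.22 in the control arrays, with no overlap between treated and control arrays. Their part in the histone differences was not tested.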

How the data were processed

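RNA of 8 samples of MDA-MB-231 cells was measured on 1 array each. The deposited table holds log2 values per probe set, and the submitters' processing notes name the Transcriptome Analysis Console, with no version; background correction and scaling are unstated there. The log2 values were used as deposited.

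A mean per group was fitted with limma 3.58.1 in R 4.3.3 (lmFit and eBayes) on the 8 arrays and the 25713 rows with a symbol, with Benjamini-Hochberg adjustment over them in each of 3 comparisons; a row is called at adjusted p under 0.05, two-sided. Members and gene lists were chosen with earlier results of these data known. Named rows are those called, each class's brightest row and its largest rise and fall in each comparison, 3 testis genes, called genes of the lists and 12 list genes set by name. Rows beyond the rule (head-to-head partners, rows with the symbols of a named row, H2AC6, H2BC17, H2BC21, H1-1, H1-3 and H1-5) were named after their values were seen. Probe sets were ordered by level only to describe them and to split them by brightness, not as amounts of RNA. The number of arrays limits the precision.

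Deviations of same-numbered low and control arrays from their group means correlated at r = 0.101, 0.151 and 0.199. Unlike numbers also gave 0.124 (control 1 with low 2) and 0.061 (control 2 with low 1). Control 3 with low 1 and 2, and low 3 with control 1 and 2, had r of -0.105 to -0.179. A pairing by number was thus not shown, and blocked values only stand beside low-dose results whose call they change. For the 2 high arrays r with the same number was 0.103 and -0.055 with controls and 0.210 and -0.185 with low arrays. Deviations of 2 arrays from their mean mirror each other, so these values cannot show whether the high arrays were paired. The block was therefore also fitted to low and control arrays alone, and at the high dose it is given only as a count. Alternatives were quantile normalization, subtracted array medians, all rows, 1 row per gene, a mean of at least 5, only the groups compared, the replicate block, array weights, a mean-variance trend each array left out, and low 3, high 2 and control 3 left out together. Promoter windows came from RefSeq (GRCh38.p14). Rows without a symbol were left out of the main fit.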

Additional observations from a re-analysis of the deposited data

How the results depend on the processing

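All 13 rows called at the low dose kept their sign under the 17 to 19 alternatives run for each, and H2AC21 and row 17016363 also kept the call under all of theirs. The count of rows lower at the low dose, 11, was 4 over all rows of the table (5.71%, beside 0.384% of all rows) and 18 with array weights (25.7%, beside 4.42%). It was 3 to 10 with 1 array left out (3 without control 1, control 2 or low 1, 4 without low 3, 5 without low 2). Lower rows were also fewer over the whole table in these, at 0.852%, 0.984%, 0.856%, 0.774% and 0.681%. The count of higher rows, 2, was 4 under quantile normalization and with array medians subtracted (5.71%, beside 2.58% and 1.6% of all rows). It was 1 over all rows (1.43%, beside 0.366%), 7 with array weights (10%, beside 4.06%) and 0 to 3 with 1 array left out. With the replicate number as a block 12 rows were lower and 5 higher at the low dose, beside 2.3% and 2.06% of all rows, and 4 lower and 1 higher at the high dose, 5.71% and 1.43% of members beside 4.1% and 0.856% of all rows. With low and control arrays alone, a block added after seeing the data, 7 were lower (10% beside 1.1%). Some settings hold fewer member rows: 1 row per gene leaves 28. Of these, 4 were lower (14.3%, beside 1.8% of all rows in that fit) and 2 higher (7.14%, beside 1.18%). A mean of at least 5 leaves 17, with 0 higher and medians of -0.75, -0.51 and 0.24 in the 3 comparisons, as in the main values of these 17 rows. Of the 17, 10 were lower at the low dose (58.8%, beside 6.26% of all rows at that level), against 8 in the main fit. At the high dose 1 was lower (5.88%, beside 2.25%), against 0 in the main fit.

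At the high dose no row was called in the main fit. With array weights 5 were lower and 1 higher (7.14% and 1.43%, beside 3.15% and 1.03% of all rows). Under quantile normalization 1 was higher (1.43%, beside 1.44%), and at a mean of at least 5 there was 1 lower (5.88%, beside 2.25%). With 1 control or low array left out 0 to 5 were lower and 0 to 1 higher. The 5 and the 1 were without control 3 (7.14% and 1.43%, beside 3.02% and 1.11%). Leaving out low 3, high 2 and control 3 together leaves 1 high array, so only medians are given for that fit. The member medians were -0.05 at the low dose, -0.04 at the high dose and 0.13 between the doses. Those of all rows were -0.02, -0.10 and -0.07. The member median at the low dose, -0.08, was -0.16 to -0.0837 with 1 array left out. That at the high dose, -0.05, was 0.0557 with array medians subtracted and -0.12 to -0.0319 with 1 array left out. High against low, 0.09, was 0.18 with array medians subtracted, 0.00305 in the 28 rows of 1 row per gene and 0.03 to 0.15 with 1 array left out. Counting identical rows once was also chosen after seeing the data. Over all rows, the share of calls that were higher was 41.9% at the low and 57.4% at the high dose, and 53.4% and 73% under quantile normalization. The cause of these shifts was not tested.

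Dim rows have no background measure, rows with several symbols name no single gene, and 2 or 3 arrays per group limit what can be called.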
